A study of Mus musculus with 82 samples.

Results

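Of 30129 EoGFP peaks, 6049 overlapped by at least 1 bp a peak in each of the BraGFP, EoV5 and EoVP16 lists. These sites held by all 4 constructs, called members here, were selected on that overlap, so their presence, width and height are given as descriptions without a test. The 4 lists together hold 132113 peaks. They come from a mouse series of 82 samples, of which 12 are ChIP-seq libraries, and from cells of the A2lox.Cre embryonic stem cell line in which both Eomes and Brachyury were knocked out (dKO). Every group used here shares that double knockout, growth as embryoid bodies, activin A (ActA) at 30 ng/ml and induction of its construct with doxycycline, with harvest on day 5. dKO+EoGFP and dKO+BraGFP cells express Eomes or Brachyury with a GFP tag and were precipitated with an anti-GFP antibody, from 2 libraries each. dKO+EoV5 and dKO+EoVP16 cells were precipitated with an anti-V5 antibody, from 1 library each. The former carry V5-tagged Eomes, the latter a fusion of Eomes with the strong viral activator VP16. An inducible transgene in cells without the endogenous factors gives the construct's level, not that of the embryo. With 1 peak list per construct there is no replicate spread, the sequencing depth is unknown from these files, and the libraries without doxycycline and the input were not used here.

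Eomes and Brachyury (encoded by T) belong to the T-box family and act in the primitive streak, where epiblast cells become mesoderm and definitive endoderm. T-box proteins bind DNA through a shared domain that recognises a short element with the core letters GTGTGA, so different family members can meet the same sites. Brachyury is known for posterior and axial mesoderm, and Eomes for definitive endoderm and anterior, cardiac mesoderm, downstream of Nodal and activin signals.

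The sequences behind the sites could be read at promoters, from RefSeq on GRCm38 (250 bases before to 50 after a transcription start). The letters TCACACCT and the shorter GGTGTGA, searched on both strands, stand for the T-box element, and every match of the first also holds the second. Of 2466 members that overlapped a coding gene's promoter in the table, 31 held TCACACCT there, and in 10 of the 31 the summits of the EoV5 and EoVP16 peaks both lay within 50 bp of it. The 8 promoters shown first are those of the 10 in which the element lies before the start; they were chosen after their values were seen. They show what a T-box element under coinciding summits looks like at a gene start. Each run has 120 bases, 5′ to 3′ on the gene's strand, with the T-box letters in capitals.
Hirip3: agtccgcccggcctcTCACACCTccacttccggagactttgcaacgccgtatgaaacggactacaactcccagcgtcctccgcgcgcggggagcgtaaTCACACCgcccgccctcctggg
E2f2: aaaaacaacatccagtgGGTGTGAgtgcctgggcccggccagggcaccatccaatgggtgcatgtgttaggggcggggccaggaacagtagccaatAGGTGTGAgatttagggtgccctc
Krba1: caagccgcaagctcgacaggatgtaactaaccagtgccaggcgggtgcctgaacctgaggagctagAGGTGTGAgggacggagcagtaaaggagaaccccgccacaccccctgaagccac
Rnf8: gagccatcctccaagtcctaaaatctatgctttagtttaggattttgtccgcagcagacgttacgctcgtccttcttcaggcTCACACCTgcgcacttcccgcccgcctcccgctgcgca
Naa15: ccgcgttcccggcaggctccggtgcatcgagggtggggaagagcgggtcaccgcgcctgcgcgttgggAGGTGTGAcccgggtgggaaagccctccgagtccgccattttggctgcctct
Dhx40: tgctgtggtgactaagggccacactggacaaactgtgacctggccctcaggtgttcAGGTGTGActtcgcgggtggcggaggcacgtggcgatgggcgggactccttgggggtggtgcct
Dhrs9: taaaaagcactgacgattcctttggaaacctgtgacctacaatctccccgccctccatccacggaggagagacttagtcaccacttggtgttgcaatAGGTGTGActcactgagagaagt
Polk: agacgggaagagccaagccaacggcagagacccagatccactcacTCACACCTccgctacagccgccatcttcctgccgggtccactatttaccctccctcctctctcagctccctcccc

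The runs lie at chr7:126861830-126861949 (Hirip3, plus strand), chr4:136180558-136180677 (E2f2, plus), chr6:48395466-48395585 (Krba1, plus), chr17:29614669-29614788 (Rnf8, plus), chr3:51415896-51416015 (Naa15, plus), chr11:86807743-86807862 (Dhx40, minus), chr2:69380342-69380461 (Dhrs9, plus) and chr13:96542710-96542829 (Polk, minus). At Hirip3, whose product binds the histone chaperone HIRA, the EoV5 summit lay 4.5 bp from the centre of the nearest T-box element and the EoVP16 summit 17.5 bp from it. At E2f2, a transcription factor of the cell cycle, the distances were 31.0 and 28.0 bp, and the run holds a second, shorter element. At Krba1 both summits stood on the same base, 21.5 bp from the element. At Rnf8, a ubiquitin ligase of the DNA damage response, they were 22 and 11 bp away, and at Naa15, a subunit of an N-terminal acetyltransferase, 19.0 and 7.5 bp. Pileup is the number of overlapping fragments at the summit. In EoV5 it was 102 at Hirip3, 151 at E2f2, 104 at Krba1, 134 at Rnf8, 139 at Naa15, 120 at Dhx40, 251 at Dhrs9 and 203 at Polk. The median EoV5 pileup was 139 fragments (interquartile range 98.5 to 188) over the 31 members with TCACACCT and 92 (75 to 122) over the other promoter members, so each of the 8 stood above the latter median. At promoter sites with EoGFP, EoV5 and EoVP16 peaks but no BraGFP peak, these medians were 110 and 80, so the higher pileup was not particular to members.

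Most member promoters held no such letters: TCACACCT was in 1.26% (0.887 to 1.78) of the 2466 promoter members and GGTGTGA in 5.15% (4.35 to 6.09). Of the genes named by the rule, 14 had a promoter in the table under a member, and 0 of the 14 held either T-box string in those 300 bases, a count too small to set them apart from member promoters at large. The 4 shown are a forkhead factor of endoderm and notochord (Foxa2), a bHLH factor of the presomitic mesoderm (Mesp2), a dual T-box and bHLH protein (Mga) and a homeobox factor best known from kidney progenitors (Six2), to set beside the runs with the element.
Foxa2: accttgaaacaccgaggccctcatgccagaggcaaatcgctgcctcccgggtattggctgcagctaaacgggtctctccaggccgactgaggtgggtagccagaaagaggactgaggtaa
Mesp2: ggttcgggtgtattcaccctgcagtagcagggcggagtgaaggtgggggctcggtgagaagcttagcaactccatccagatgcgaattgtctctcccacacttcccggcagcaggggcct
Mga: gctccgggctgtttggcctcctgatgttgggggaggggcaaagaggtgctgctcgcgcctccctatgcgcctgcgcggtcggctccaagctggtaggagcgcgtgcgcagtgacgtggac
Six2: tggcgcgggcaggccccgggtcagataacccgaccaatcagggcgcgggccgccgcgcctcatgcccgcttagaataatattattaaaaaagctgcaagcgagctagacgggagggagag

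Each run ends at the base before a transcription start of its gene. The runs lie at chr2:148046970-148047089 (minus strand), chr7:79810607-79810726 (plus), chr2:119897108-119897227 (plus) and chr17:85688255-85688374 (minus). For Mga that start, base 119897228, is inside the gene, which begins at base 119872503. Another member, chr2:119872050-119873632, covered the beginning of Mga, with an EoV5 pileup of 261 and an EoVP16 pileup of 152. The window says nothing about elements outside it. At Mga, the EoV5 summit (base 119897117) fell inside the printed run; at Mesp2, the EoV5 and EoVP16 summits lay downstream of the start, 19 bp from each other.

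Across the genome, members were long peaks with a common middle. In 6029 of 6049 the 4 peaks had at least 1 base in common, and that common stretch had a median of 782 bp (interquartile range 536 to 1105), a median of 74.1% of the EoGFP peak over all members. In the other 20, each list met the EoGFP peak but at no single base shared by all. Members had a median EoGFP width of 1152 bp (830 to 1548), against 884 bp (660 to 1227) for the 10924 EoGFP peaks with EoV5 and EoVP16 but no BraGFP. The widest common stretches were 4027 bp at Peg3, an imprinted zinc finger gene, 3761 bp at Hes7, an oscillating Notch target of the segmentation clock, 3613 bp at Anp32a, 3294 bp at Fat4, a giant cadherin, and 3195 bp at Dusp4, a phosphatase of ERK signalling. Their EoV5 pileups were 101, 126, 157, 103 and 289 fragments in that order, of which 3 were above the median of 112 over all members.

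The edge of the set was thinly populated. In 4 members the smallest overlap with a list was 50 bp or less, in each case with BraGFP: 8 bp near Hace1, 9 bp near Ing2, 19 bp near Bmper and 38 bp near Slc4a7. Just outside, 5 EoGFP peaks with an EoV5 and an EoVP16 peak missed a BraGFP peak by 50 bp or less, with gaps of 4 bp near Mrpl33, 21 bp near Cdkal1, 23 bp near Cers6, 38 bp near H3c15 and 44 bp near Hlf. EoV5 pileup had a median of 322 fragments in the first group and 203 in the second. Neither group had a site at a gene end. The 6049 members met 5995 BraGFP, 5910 EoV5 and 5981 EoVP16 peaks, so that 21.7%, 15.5% and 16.5% of those lists were at members. A partner peak can meet several members, as 156 EoV5 peaks did, and such members carry the same height.

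Nearly as many members lay at the ends of genes as away from them. The midpoint was no more than 1 kb from the start or finish of a coding gene (a gene end) in 2774 members, or 45.9% (95% Wilson interval 44.6 to 47.1), elsewhere inside a gene in 1735 (28.7%), and outside genes in 1540 (25.5%). Of the other 24080 EoGFP peaks, 23.1% (22.6 to 23.6) were at a gene end, a difference of 22.8 percentage points (95% Newcombe interval 21.4 to 24.1). Against the EoGFP, EoV5 and EoVP16 sites without BraGFP, at 23.8%, the difference was 22.0 points (20.5 to 23.5). These intervals cover counting error only, and peaks are not replicates of a condition. Among genes whose strand the promoter table gives, 2153 of 2292 members at a gene end (93.9%) were at the start alone and 48 (2.09%) at the finish alone. The corresponding share for other EoGFP peaks was 87.5% at the start alone.

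The lists that share a site were associated with very different shares at gene ends. It was 58.6% (55.6 to 61.5) for EoGFP peaks with BraGFP and EoVP16 but no EoV5, and 54.8% (53.1 to 56.5) for EoGFP peaks shared with EoVP16 alone. It was 4.26% (3.00 to 6.02) where EoVP16 was the list that was missing, and 3.75% (3.31 to 4.25) for EoGFP peaks shared with EoV5 alone. Members, at 45.9%, lay between these. The difference between members and all other EoGFP peaks shrank to 8.37 points (6.04 to 10.7) when each list was reduced to its wider or taller 50%, while that against sites without BraGFP was then 28.7 points (26.1 to 31.4).

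**Figure D1:**
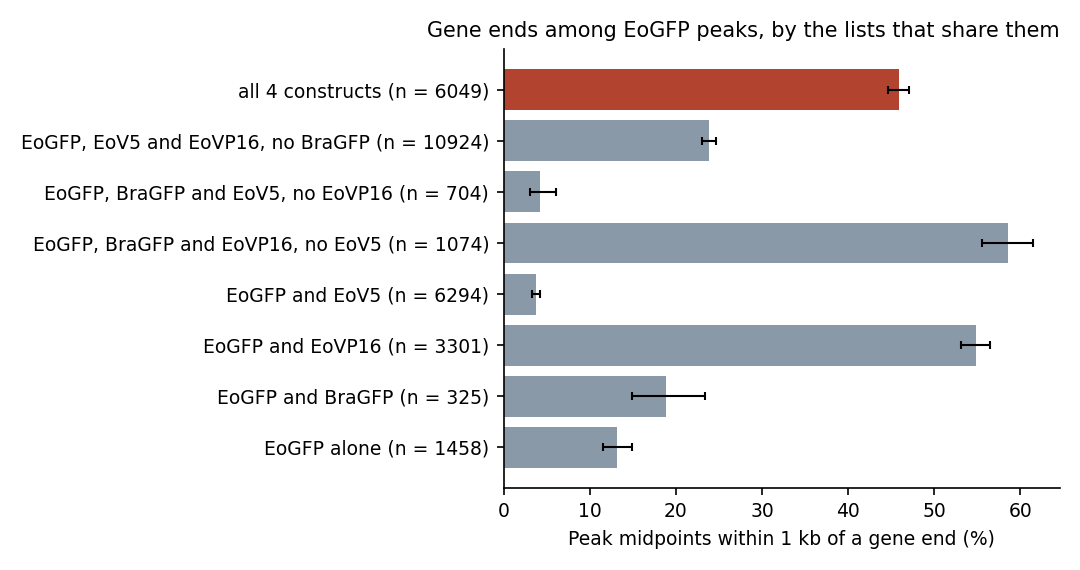
Share of EoGFP peaks with the midpoint within 1 kb of a coding gene end (percent, bars; lines are 95% Wilson intervals), by which of the other 3 lists share the peak, with the number of peaks in brackets. Members (red) stand at 45.9%, above the 23.8% of sites that lack only BraGFP and below the 58.6% of sites that lack only EoV5.

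Heights at members differed by place, and mainly in EoV5. At gene ends the median EoV5 pileup was 92 fragments (interquartile range 75 to 122) and the median EoVP16 pileup 84 (69 to 102). Outside genes the EoV5 median was 176 (101 to 334) and the EoVP16 median 89 (63 to 130), and more than 50 kb from any gene end they were 193 (111 to 358) and 83 (57.8 to 126). EoV5 height thus differed between places where EoVP16 height hardly did. Over all members the medians were 112 and 83 fragments, and the 2 lists have different minimum pileups of 60 and 36, so heights are compared within a list only. Members at gene ends were also wider, with a median of 1321 bp against 949 bp outside genes. Fold enrichment over the caller's background showed the same order for EoV5, with medians of 13.3 at gene ends and 24.8 outside genes.

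**Figure D2:**
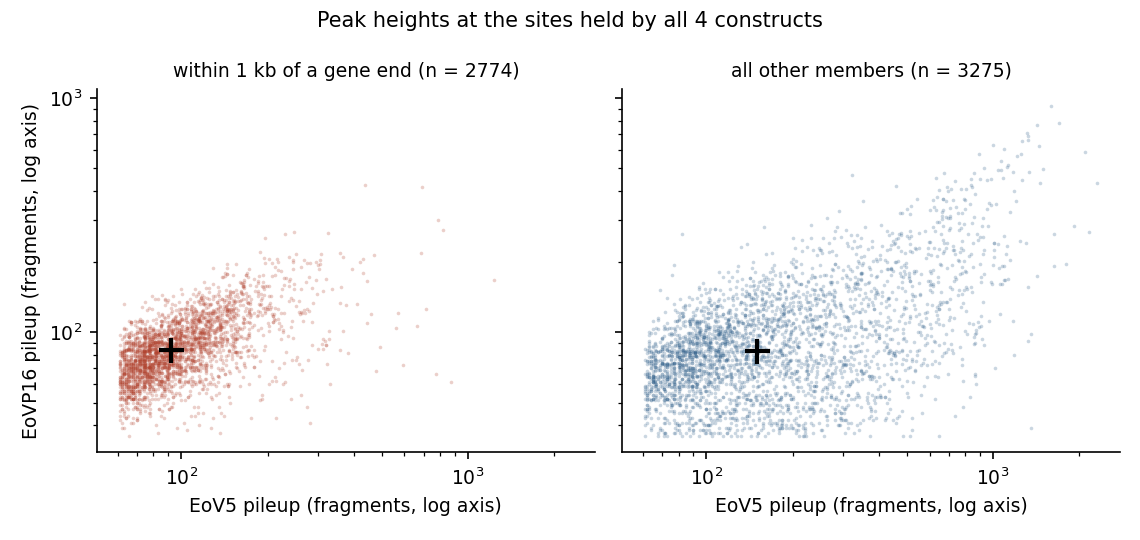
EoV5 pileup (x) against EoVP16 pileup (y), both in fragments on log axes, for members within 1 kb of a gene end (left, 2774) and all other members (right, 3275); each point is a member and the cross marks the medians. Members at gene ends form a compact cloud at low EoV5 height, and most of the tallest peaks are in the right panel. The left panel holds 12 of the 376 members with an EoV5 pileup from 501 upwards and 8 of the 149 with an EoVP16 pileup from 251 upwards.

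The share at gene ends fell with EoV5 height. It was 66.4% (63.9 to 68.8) of the 1412 members with an EoV5 pileup of 61 to 80, 51.7% (49.2 to 54.3) at 101 to 150, 11.2% (9.01 to 13.8) at 251 to 499 and 3.19% (1.83 to 5.49) of the 376 members from 501 upwards. Sites without BraGFP showed a fall as well, from 51.3% to 4.53% over the same range of heights. With EoVP16 height the shape differed: 17.5% (14.4 to 21.0) of members with a pileup of 36 to 50 were at gene ends, 57.4% (55.1 to 59.7) at 76 to 100, and 5.37% (2.75 to 10.2) of the 149 members from 251 upwards. Sites without BraGFP also rose and fell, with 12.4%, 30.2% and 5.56% in the same EoVP16 ranges. Spearman's rho between EoV5 and EoVP16 heights was 0.416 over the 6049 members, 0.559 at gene ends and 0.455 outside genes; these are descriptions over sites of the same 2 libraries.

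Among the sites in all 3 Eomes lists, the share that also had a BraGFP peak, and so were members, rose with EoVP16 height at gene ends and elsewhere. At gene ends it went from 19.2% (15.9 to 23.1) in the lowest quintile of EoVP16 pileup (36 to 50 fragments) to 75.1% (72.3 to 77.7) in the highest (101 to 1379). Elsewhere it went from 13.7% (12.5 to 15.0) to 48.2% (46.2 to 50.2), and in each quintile it was lower than at gene ends. With EoV5 height there was no such rise away from gene ends: the share was 27.6% (25.4 to 29.9) in the lowest quintile and 30.3% (28.7 to 31.9) in the highest. At gene ends it was 42.9% in the lowest EoV5 quintile, 62.7% in the middle one and 41.0% in the highest. EoVP16 and EoV5 were precipitated with the same antibody, from 1 library each, at different minimum pileups and unknown depth. What lies behind the difference between these lists was not tested.

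**Figure D3:**
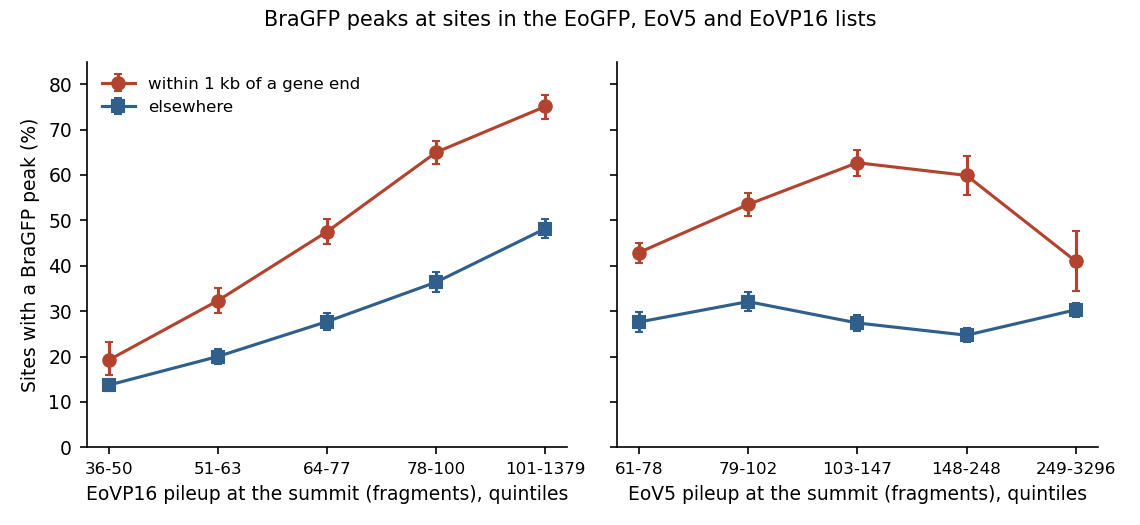
Percent of EoGFP, EoV5 and EoVP16 sites that also have a BraGFP peak (y, lines are 95% Wilson intervals), by quintiles of EoVP16 pileup (left) and of EoV5 pileup (right), in fragments. The share climbs across EoVP16 quintiles to 75.1% at gene ends (red) and 48.2% elsewhere (blue), and away from gene ends it stays between 24.7% and 32.1% across EoV5 quintiles.

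Tall members were seldom within 1 kb of a gene end (3.19% of the 376 with an EoV5 pileup from 501 upwards). The highest EoV5 pileup, 2305 fragments (95% Poisson interval 2212 to 2401) with 432 in EoVP16, was at chr8:105070891-105071937, 9.49 kb from the carboxylesterase gene Ces3a. It was followed by sites nearest to Mcc (2165), Tyr (2092), Dspp (1920), Slc4a3 (1796), Cntnap5b (1695), Tnni3k (1631), Agap1 (1630), Olfr1109 (1595) and Lcorl (1496). Several of these genes are known from other tissues, such as tyrosinase of pigment cells (Tyr) and a matrix protein of dentin (Dspp). The site nearest to Slc4a3 was 350 kb from it and that nearest to Lcorl 588 kb, so a nearest gene is an address only. The highest EoVP16 pileup was 928 fragments (869 to 990) at chr2:87088033-87089494, 3.69 kb from the olfactory receptor gene Olfr1109, and the next were nearest to Cntnap5b (784), Cdh20 (767), Naip2 (710), Gm4788 (687), Adam6a (661), Pate13 (656), Cox7c (627), Gm1527 (624) and Olfr1002 (605). At these sites the EoV5 and EoVP16 summits were 2 to 30 bp apart. Regions known for high coverage in any library were not masked here.

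EoV5 and EoVP16 summits coincided closely at members. Over 6145 pairs of peaks the median distance was 31 bp (interquartile range 12 to 96), and 75.8% (74.7 to 76.8) were within 100 bp. At gene ends the median was 50 bp and 67.1% (65.4 to 68.8) were within 100 bp; elsewhere it was 22 bp and 83.1% (81.8 to 84.4). Close summits were not particular to members: over all pairs at sites without BraGFP the median was 27 bp, with 81.9% (81.2 to 82.6) within 100 bp. At gene ends these sites had a median of 55 bp and 64.2% within 100 bp, and elsewhere 23 bp and 87.5%. Of the members at promoters on a single strand, 63.3% had the EoV5 summit within 250 bp of the transcription start and 73.4% had the EoVP16 summit there, with medians 16 and 26 bp upstream of the start (−16.0 and −26.0 bp).

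T-box letters were rare at member promoters, but summits lay close to them. Promoters under members held GGTGTGA in 4.29% of 3173, promoters under other EoGFP peaks in 3.15% of 5326, and all 21263 promoters in 3.68%. The first 2 differed by 1.13 points (95% Newcombe interval 0.308 to 2.01). Under EoGFP, EoV5 and EoVP16 peaks without BraGFP the GGTGTGA share was 3.67% (3.01 to 4.48) of 2533 promoters. Its interval overlaps that of members (3.63 to 5.05), so the excess does not set members apart from these sites. For TCACACCT the shares under members, under other EoGFP peaks and over all promoters were 1.01%, 0.676% and 1.15%. The difference of the first 2 was 0.333 points, with an interval that includes 0 (−0.0582 to 0.785). The same letters written backwards, AGTGTGG and TCCACACT, served as a control of equal composition and gave differences of 0.147 points (−0.778 to 1.12) and 0.0382 points (−0.375 to 0.503). Under members these controls were in 4.92% and 0.977% of promoters, beside 4.29% for GGTGTGA and 1.01% for TCACACCT. Promoters under no EoGFP peak held GGTGTGA in 3.74% and TCACACCT in 1.39%. Promoters under members were GC-rich, with a median GC content of 62.7%, as were those under other EoGFP peaks (61.7%); promoters under no EoGFP peak had 51.3%. The Sp1-type GC box GGGCGG was found in 70.2% and 68.5% of the first 2 sets, and the CCAAT box in 39.0% and 40.0%, with intervals of the difference that include 0 (−0.335 to 3.71 and −3.15 to 1.15).

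Where a member promoter held GGTGTGA, the EoV5 summit was within 50 bp of it in 51 of 127 members, or 40.2% (32.0 to 48.9). For the reversed letters AGTGTGG this was so in 22 of 138, or 15.9% (10.8 to 23.0), a difference of 24.2 points (13.5 to 34.3). The EoVP16 summits gave 43.3% and 14.5%, a difference of 28.8 points (18.1 to 38.8). For TCACACCT the EoV5 share was 41.9% (26.4 to 59.2) of 31 members, and for its reversed letters 14.8% (5.92 to 32.5) of 27. The median distance from the EoV5 summit was 84.0 bp for GGTGTGA and 226 bp for AGTGTGG. Sites without BraGFP showed the closeness too, with 45.2% (35 to 55.9) for GGTGTGA and 20.5% (14.2 to 28.7) for AGTGTGG, so it was seen at both kinds of site.

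The share of promoter members with GGTGTGA was 2.3% (1.32 to 3.97) in the lowest quintile of EoV5 pileup (61 to 73 fragments), 3.83%, 5.53% and 5.57% in the next 3, and 8.70% (6.50 to 11.5) in the highest (135 to 1237). AGTGTGG went from 6.70% (4.86 to 9.18) to 4.14% (2.70 to 6.31). By EoVP16 quintiles GGTGTGA went from 2.83% to 8.40% and AGTGTGG from 5.86% to 6.51%. Median GC content was 61.3% in the lowest EoV5 quintile and 62.3% in the highest, and median width 1284 and 1545 bp. Even in the highest quintile, over 9 in 10 promoter members held no such letters in the promoter window. A match is a string of letters and not a bound site.

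**Figure D4:**
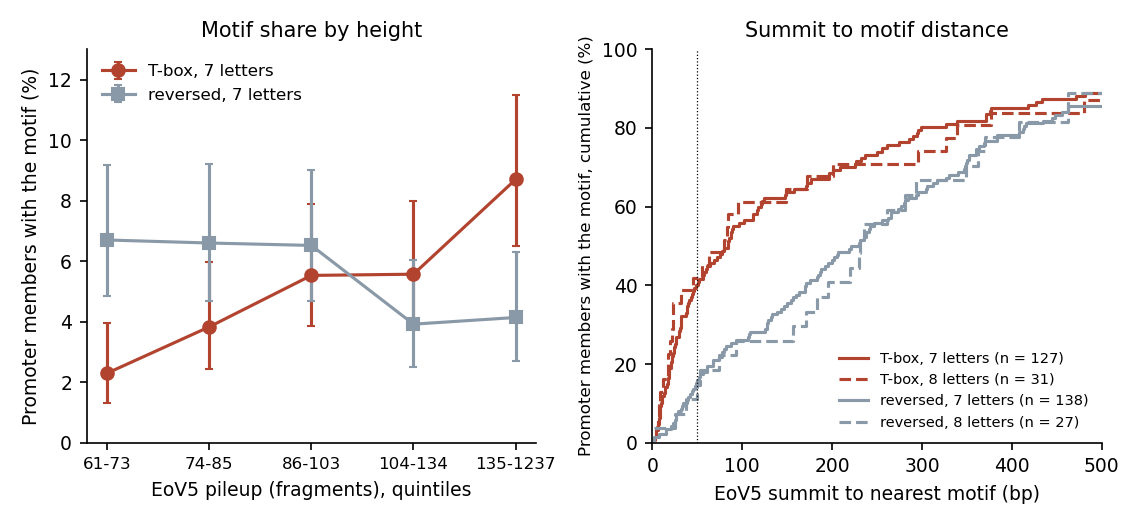
Left, percent of promoter members whose promoter holds the 7-letter T-box string (red) or its reversed letters (grey), by quintiles of EoV5 pileup in fragments, with 95% Wilson intervals; the T-box share goes from 2.3% to 8.70%. Right, cumulative percent of members by distance from the EoV5 summit to the nearest string in bp, with a dotted line at 50 bp; the T-box lines pass it at 40.2% and 41.9%, the reversed ones at 15.9% and 14.8%.

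Of the genes of the 7 factors reintroduced into dKO cells, 5 had a member within 50 kb, where 45.1% of all coding genes did. Eomes and Mesp1 had 2 each, and Msgn1, Foxa2 and Six2 1 each, while T and Mixl1 had 0, with 4 and 5 EoGFP peaks in the window. Distances given in kb run from a member's midpoint to the nearer gene end. The Foxa2 member, chr2:148045565-148047384, covered the start of the gene. Its EoV5 pileup was 336 fragments (301 to 374) and its EoVP16 pileup 152 (129 to 178), with summits 25 bp apart and 1436 bp common to all 4 lists. The Six2 member, chr17:85688200-85689922, also covered the start of its gene, with 228 and 121 fragments and its midpoint 0.807 kb upstream. Mesp1, which marks the first cardiac progenitors, and its neighbour Mesp2 shared 2 members. The first, chr7:79796702-79798398, lay 3.96 kb upstream of Mesp1 with an EoV5 pileup of 211 (183 to 241) and an EoVP16 pileup of 125 (104 to 149); the second, chr7:79810339-79811693, lay on the Mesp2 start with 119 (98.6 to 142) and 45 (32.8 to 60.2). The upstream site had the higher pileup in both lists, each from 1 library, and the intervals cover counting error only. Both Eomes members lay inside the neighbouring gene Golga4, 25 and 34.9 kb from Eomes, and their order differed between lists, with EoV5 pileups of 263 and 87 and EoVP16 pileups of 57 and 93. Msgn1, a regulator of presomitic differentiation, had its member 30.4 kb away with 452 and 81 fragments.

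Over all genes, 9876 of 21887 coding genes, or 45.1%, had a member within 50 kb, and 26.8% had a member within 10 kb; the median number of members per gene was 0 at 50 kb. Genes of corepressors and chromatin had members at 13 of 16 (81.2%, 57.0 to 93.4), with a median of 1, and genes of EMT and adhesion at 10 of 14 (71.4%, 45.4 to 88.3). FGF and ERK signalling had 9 of 15, definitive endoderm 8 of 14, Wnt signalling 10 of 18, Nodal and activin signalling 9 of 17, mesoderm 10 of 20, the T-box family 8 of 17, and primitive streak and node 6 of 14, all with intervals that include 45.1%. Pluripotency genes had 6 of 18. Neural plate genes had the lowest count, 2 of 15 (13.3%, 3.74 to 37.9), below adult tissue controls with 3 of 15, trophoblast and primitive endoderm with 3 of 14 and feeder fibroblast genes with 3 of 11. Ribosomal protein genes, which are expressed in all cells, had 8 of 15. Lists were not matched for gene length or spacing. The lists outside the background did not stay there under every setting. With the EoGFP midpoint required inside a peak of each other list, corepressor and chromatin genes had 10 of 16 (62.5%, 38.6 to 81.5) beside 43.6% of all genes. With a window of 100 kb they had 13 of 16 (lower limit 57.0%) and EMT and adhesion genes 10 of 14 (lower limit 45.4%), beside 58.9%, and neural plate genes had 7 of 15 (46.7%, 24.8 to 69.9). With the wider or taller 50% of each list EMT and adhesion genes had 3 of 14 (21.4%, 7.57 to 47.6) beside 19.6%.

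**Figure D5:**
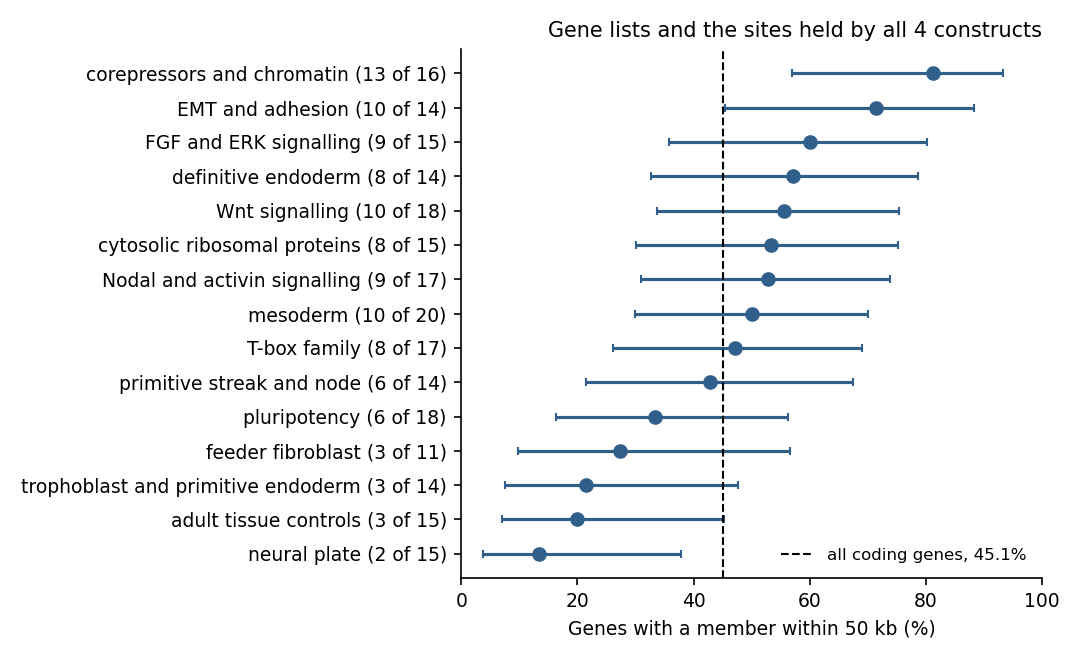
Percent of each list's genes with a member within 50 kb (points; lines are 95% Wilson intervals), with the counts in brackets and the 45.1% of all coding genes as a dashed line. Corepressor and chromatin genes (81.2%) and EMT and adhesion genes (71.4%) lie above the line with their whole interval, and neural plate genes (13.3%) lie below it; a window of 100 kb takes all 3 lists' intervals across the share of all genes.

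Among the corepressor and chromatin genes, Tle3 and Tle4, Groucho-type corepressors that T-box factors can recruit, had 3 members each. The widest member of all, chr9:61367706-61374817 at 7112 bp, reached over the Tle3 start (base 61372366), though its midpoint counted as outside genes. Its EoV5 and EoVP16 pileups of 271 and 85 were at summits upstream of that start, at bases 61368121 and 61368725. The 3 at Ncor1, a nuclear receptor corepressor, included 1 of 1803 bp over the start of the gene with 89 and 68 fragments. Its EoVP16 summit, at base 62456751, lay outside that member (chr11:62457264-62459066). In EMT and adhesion, Zeb2, a repressor of epithelial genes, had 3 members inside the gene with EoV5 pileups of 295, 164 and 168, and Cdh2, the mesenchymal N-cadherin, had 3 with 197, 146 and 112.

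Cfc1, a Nodal co-receptor of the streak and node list, carried the tallest EoV5 peak at a member of the listed genes. Its start was covered by a member with an EoV5 pileup of 821 fragments (766 to 879) and an EoVP16 pileup of 272 (241 to 306). A second, 1.96 kb away, had 765 (712 to 821) and 177 (152 to 205), and the farthest, 16.5 kb away, 562 and 112. Lhx1, a homeobox factor of anterior streak and node, had 3, of which that at its start was 4279 bp wide with 446 and 109 fragments. In the Nodal and activin list, Furin, a protease that processes Nodal precursors, and Skil, a Smad corepressor, had 3 each, and the 2 next to Skil met the same EoV5 and EoVP16 peaks (144 and 187 fragments). Smad3, which carries the activin signal into the nucleus, had 2, with 242 and 59 fragments at the one inside the gene. Foxc1, a forkhead factor of paraxial mesoderm, had 2 with EoV5 pileups of 754 and 446. The first had an EoVP16 pileup of 323 (289 to 360), above those at Cfc1. The EoV5 summit of the second, at base 31804659, lay outside that member (chr13:31806478-31807031). Hnf4a, an endoderm nuclear receptor, had 3 low ones of 91, 104 and 66.

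Among signalling genes, Wnt5b had 3 members with EoV5 pileups of 96, 110 and 143, Lef1, a nuclear partner of beta-catenin, had 2 with 321 and 102, and Wnt11 had 2 with 113 and 87. Dusp4 had 2, and that over an end of the gene was 6132 bp wide with 289 and 133 fragments; Fgfr1 had 2 with 94 and 111 and Etv4, an ETS factor downstream of FGF, 2 with 73 and 76. Of the pluripotency genes, Nanog had 2: the site 4.81 kb upstream had 142 fragments (120 to 167) in EoV5 and 170 (145 to 198) in EoVP16, and a second 46.6 kb away had 72 and 61. Pou5f1 had 1 at 6.11 kb with 165 and 158. Neural plate genes with members were Pou3f1, with 140 and 66 in EoV5, and Pax6, with 207.

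Most members stood alone. With gaps of up to 10 kb joined, 5111 were single and 938 (15.5%) fell into clusters: 404 pairs, 36 of 3, 4 of 4 and 1 of 6. Neighbouring members can lie under a single partner peak: 156 EoV5, 139 EoVP16 and 119 BraGFP peaks each met 2 or more members. Such members are not separate sites in that list. In the cluster of 4 at Gm37013, which spanned 4.91 kb, several members had the same pileups of 136 in EoV5 and 118 in EoVP16. The median gap to the next member was 162 kb (interquartile range 52.5 to 431). The cluster of 6 spanned 29.6 kb between Eapp and Snx6, chr12:54709684-54739245, outside both genes, with EoV5 pileups of 136 to 205 and EoVP16 pileups of 142 to 190. Its 6 sites were alike in height and width (1400 to 1838 bp), and each of the 2 genes had 8 members within 50 kb, the most of any gene. The same number was reached by 6 histone genes of chromosome 13 (H3c8, H2bc9, H3c7, H4c6, H1f3 and H3c6), where the window of each gene takes in its neighbours. Of 67 histone genes (symbols starting with H1f, H2ac, H2bc, H3c or H4c), 24 (35.8%) had a member within 1 kb of an end, beside 14.6% of all coding genes. Some of these genes lie so close together that a member can count for more than 1 of them. This family was singled out after its values were seen. In the span of those on chromosome 13, the 22 members had EoV5 pileups of 61 to 403. Histone genes of the same family have similar coding sequences, and how any reads that map to several of them were counted is not given in the sources used here. By chromosome, members were 18.2% to 22.1% of EoGFP peaks on the autosomes and 16.2% (12.6 to 20.6) on X, where 54 of 333 were members.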

How the data were processed

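Peak lists of 4 constructs were analysed, taking each sample's group from its title. The submitters' processing notes list MACS2 2.1.1.20160309.4, a peak caller, Bowtie2 2.3.4, an aligner, bedtools 2.27.0, SAMtools 1.3.1, deepTools 3.0.2, Picard 1.56.0 and the build mm10/GRCm38. Order, settings, control and the joining of the 2 GFP libraries are not given in the sources used here. The deposited EoGFP and BraGFP lists hold positions only. In the deposited EoV5 and EoVP16 lists, which have no header, signal means summit pileup in fragments, the ratio is the fold enrichment over the caller's background, and the −log10 p and −log10 q values the authors give were not used. Minimum pileups of 120 (EoGFP), 40 (BraGFP), 60 (EoV5) and 36 (EoVP16) come from the deposited names. Depth is not given, so no value is scaled to it.

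Peaks on unplaced contigs (4, 7, 7 and 6) and repeats (12, 4, 46 and 26) were left out. Members, gene lists and motifs were chosen with earlier results of these data known. A member takes its tallest partner peak's height and summit; that summit lay outside the EoGFP peak in 291 members for EoV5 and 219 for EoVP16. Places come from midpoints and a GRCm38.p6 gene table of 21887 coding genes; 17492 (79.9%) had a promoter sequence, and none was read away from promoters because no genome was used. All 233 list entries matched a gene. The 7 put-back factors, the nearest genes of the 10 highest members in EoV5 and in EoVP16, the 10 genes with most members, 3 genes per list with most members, and the genes at the 5 widest common stretches were named by rule; genes in the motif, edge and histone sentences were not. Shares carry 95% Wilson, differences Newcombe, pileups exact Poisson intervals, for counting error only. Python 3.11.15 with numpy 2.4.6, pandas 2.3.3 and scipy 1.17.1 was used, tested on simulated peaks. Alternatives covered overlap, shorter lists, autosomes, windows, distances, height measure and motif.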

Additional observations from a re-analysis of the deposited data

How the results depend on the processing

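No paired analysis was possible because each construct has 1 peak list and the lists carry no replicate numbers; leaving out a library was not possible for the same reason. Requiring 50% overlap or autosomes alone moved no value beyond its interval. With the EoGFP midpoint inside a peak of each other list, members were 18.8% of EoGFP peaks and 43.6% of coding genes had a member within 50 kb. With the wider or taller 50% of each list there were 2028 members (13.4% of EoGFP peaks), 48.8% of them at a gene end, 8.37 points above other EoGFP peaks, and 19.6% of coding genes had a member; the lists are shorter by construction. Counted from the other side, members were 21.6% of BraGFP, 15.6% of EoV5 and 16.5% of EoVP16 peaks. At 5 kb, 58.6% of members were near a gene end. Windows of 10 and 100 kb gave 26.8% and 58.9% of coding genes; list counts moved by over 1.5 times in 10 of 15 lists at 10 kb, 1 at 100 kb and 14 with the shorter lists. GGTGTGA in place of TCACACCT raised the share of promoter members with a motif to 5.15%. Among the taller 50% of EoV5 and EoVP16 peaks, summits were a median of 23 bp apart, with 81.7% within 100 bp. Height ratios kept their direction with fold enrichment and, against sites without BraGFP, with mean heights. Alternatives for the summit to motif distance were chosen after seeing the data, and each kept its direction. Unknown depth, different minimum pileups and the lack of uninduced or input values limit what the lists can show.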
